A study of Mus musculus with 12 samples.

Results

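The genes described here are 50 mouse genes of mitosis and cytokinesis, the steps in which a cell separates its copied chromosomes and then divides. They were chosen by name: each is represented by the probe set (the group of array probes for a transcript) that the array annotation assigns to that gene alone, and where a gene had several, by the one with the highest mean over the arrays. Of the 50 genes, 49 had such a probe set, out of 19937 genes on the array in all. Ccnb1 (cyclin B1) was not analysed here. Only Top2a and Depdc1a had 2 probe sets each.

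RNA was measured on 12 Affymetrix arrays of dendritic cells. Bone marrow of mice had been cultured with GM-CSF at 200 ng/ml for 7 days and the cells purified with CD11c beads (purity above 95% by the labels). There were 4 groups of 3 arrays: wild-type cells and IL-2 knockout cells, which lack the cytokine interleukin 2, each untreated or given curdlan for 6 h. Curdlan is a beta-glucan that activates dendritic cells through the receptor Dectin-1. The comparison asks how loss of IL-2 changes dendritic cells and their response to curdlan. The strain label B6.129P2-Il2tm1Hor/J stands on all 12 arrays, the wild-type ones included, so genotypes here follow the genotype label together with the titles. The knockout is constitutive, and neither the age of the mice nor any pooling of marrow is stated by the labels. The labels do not say whether replicates were separate animals or cultures, so a p-value reflects only how far these samples spread, which may be technical.

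Mitosis is driven by the kinase Cdk1 with its cyclins and by the Polo and Aurora kinases. Condensin folds the chromosomes, kinetochores tie them to spindle microtubules, the spindle checkpoint holds back the anaphase-promoting complex until all are attached, and kinesin motors and a contractile ring then separate the daughter cells. Most of these genes are transcribed only in dividing cells, in the G2 and M phases, and are shut down when cells leave the cycle. Cultures of marrow with GM-CSF start from dividing precursors, and mature dendritic cells are known to have stopped dividing.

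Expression is given as log2 values made by the authors with RMA, so a difference of 1 is a doubling and a value has meaning only beside other values of the same gene. All 12 arrays had alike distributions, with medians between 6.59 and 6.64. The disrupted gene, Il2, measured 5.56, 5.37 and 5.53 in untreated and 7.80, 7.22 and 6.74 in curdlan-treated wild-type cells, against 6.04, 5.88 and 5.77 and then 5.87, 5.80 and 5.63 in knockout cells. With curdlan, Il2 was higher in wild-type than in knockout cells (knockout minus wild type -1.48, limma, adjusted p 0.0114). Untreated, the 3 knockout arrays lay above the 3 wild-type arrays by 0.41 on average, which did not pass (adjusted p 0.524). Of the defining genes of the labelled cell type, Itgax (CD11c) lay between 12.86 and 13.08 and H2-Ab1 (MHC class II) between 13.12 and 13.37, and neither passed in any comparison. For markers of other cell types, the range of the 4 group means of the list was 6.04 to 6.32 for 6 T cell genes, 5.14 to 5.20 for 5 B cell genes, 4.71 to 4.81 for 6 NK cell genes and 5.89 to 6.05 for 9 neutrophil genes. Single genes differed within a list: Cd3d lay between 4.63 and 5.01 and Lat, also a T cell gene, between 8.76 and 9.79. Of these genes 1 passed between genotypes, Lat, which was higher in the knockout with curdlan (0.62, adjusted p 0.0426), and 1 passed for curdlan, the NK cell gene Ncr1, which was higher in knockout cells (0.21, adjusted p 0.0498). Of all genes, 19.6% passed for curdlan in wild-type and 22.5% in knockout cells. Between genotypes 1.42% passed untreated and 0.622% with curdlan, so few or no calls there say little about lists this short. Group means of a list of 7 macrophage genes were 10.72 to 10.80, and those of 11 dendritic cell genes were 10.79 to 11.28. These are different genes, so the lists cannot be ranked by level. Csf1r had group means of 12.28 to 12.54, while Marco had 7.16 to 7.79. Fcgr1 and Mertk rose with curdlan in both genotypes, and no macrophage gene passed between genotypes. The 6 mast cell and basophil genes had group means of 4.87 to 5.13, and Hdc among them rose by 1.35 in wild-type cells. Such levels do not give the share of other cells, and their part in the results was not tested.

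The genes as a set had a clear order over the 4 groups. Their mean level was 8.56, 9.24 and 8.76 on the untreated wild-type arrays (8.85 ± 0.35, SD, n = 3). It was 7.56, 8.30 and 7.79 in wild-type cells with curdlan (7.88 ± 0.38, SD, n = 3), 7.79, 7.71 and 7.99 in untreated knockout cells (7.83 ± 0.15, SD, n = 3) and 7.14, 7.11 and 7.21 in knockout cells with curdlan (7.15 ± 0.05, SD, n = 3). Untreated wild-type cells were highest and knockout cells with curdlan lowest, while curdlan-treated wild-type and untreated knockout cells overlapped. Gene by gene, the untreated wild-type mean was the highest of the 4 in all 49 genes, and the mean of knockout cells with curdlan was the lowest in 48. In 43 of the 49 genes every untreated wild-type array lay above the other 9 arrays, against 3.27% of all genes. Over the 12 arrays the genes moved together, with a median Pearson correlation between genes of 0.96 and a lowest one of 0.39. In bulk RNA, fewer dividing cells and less of these transcripts per cell cannot be told apart.

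**Figure D1:**
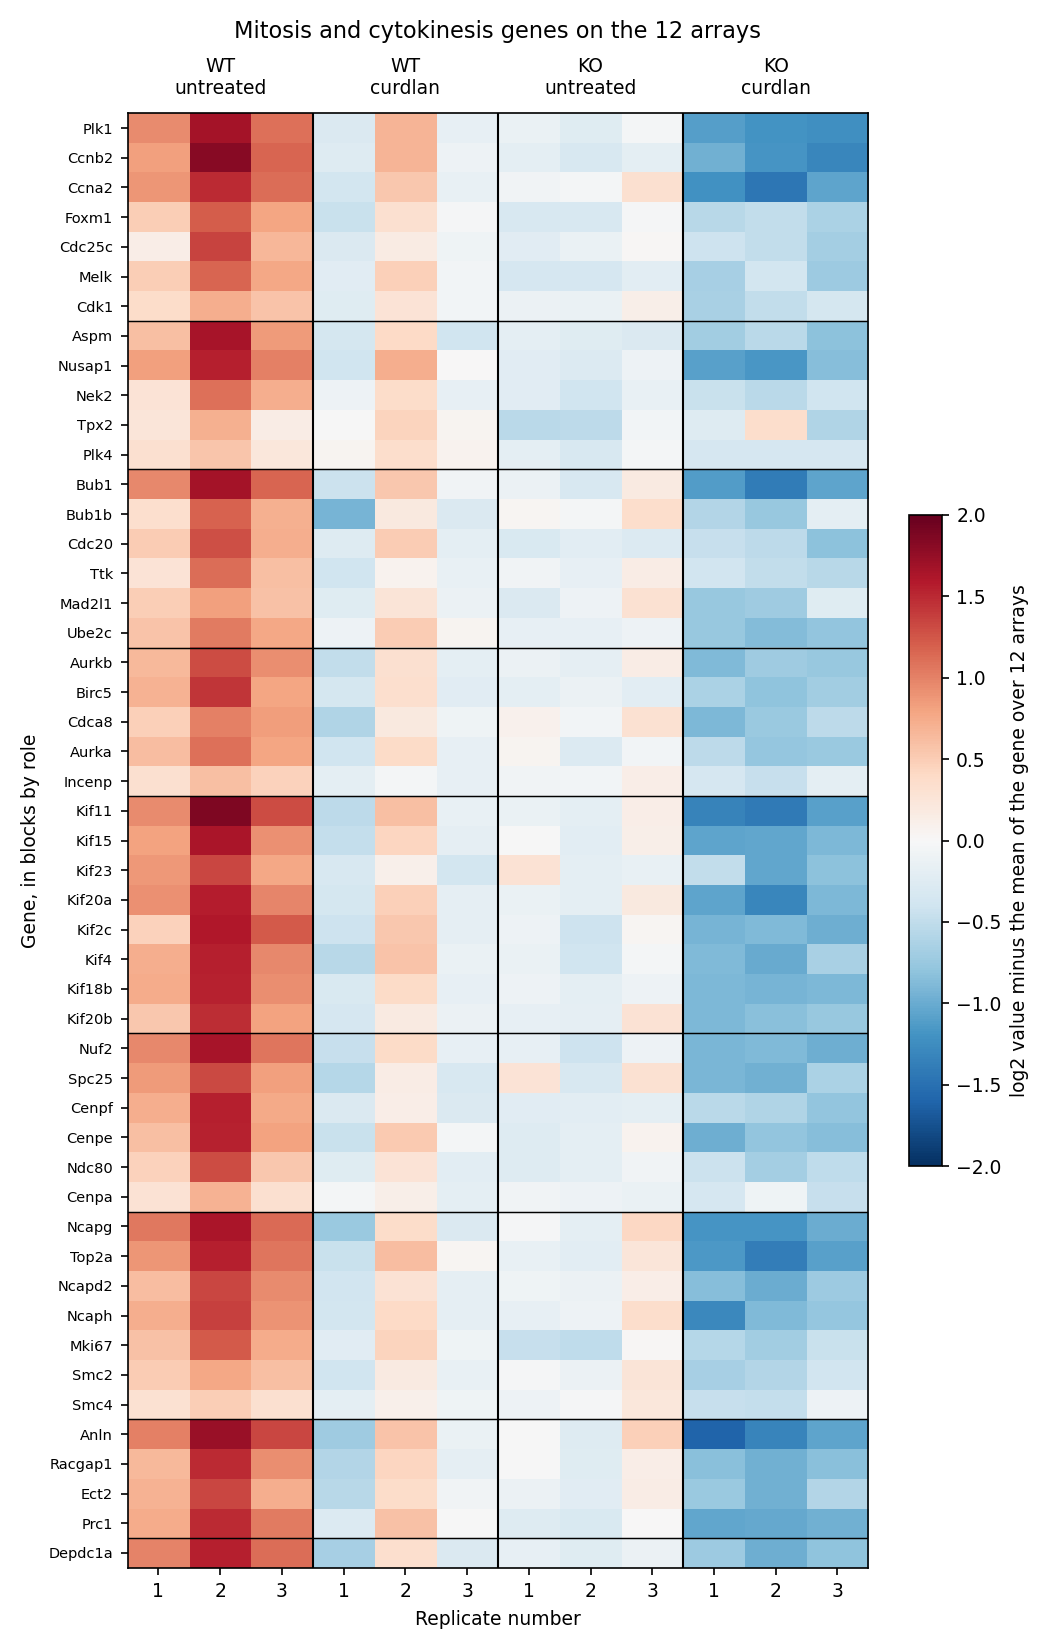
Heat map of the 49 genes (rows, in blocks by role) on the 12 arrays (columns, by group and replicate number); the colour is the log2 value minus the mean of that gene over 12 arrays. Untreated wild-type arrays are red, knockout arrays with curdlan blue except for Tpx2 on array 2, and replicate 2 of the wild type is the reddest of its group in both treatments.

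Replicate 2 of the wild type stood apart within its genotype. All 49 genes had their highest value of the group on it, both untreated and with curdlan. The median SD of the 49 genes was accordingly 0.36 in untreated and 0.40 in curdlan-treated wild-type cells, against 0.17 and 0.14 in the knockout and 0.07 to 0.09 for all genes in any group. Subtracting the untreated from the curdlan array of the same number removed most of that spread: the mean change of the 49 genes was -1.0, -0.94 and -0.97 in the 3 wild-type pairs and -0.65, -0.59 and -0.78 in the 3 knockout pairs. All 49 genes were lower with curdlan in each wild-type pair, and 48, 47 and 49 were lower in the knockout pairs, while 44.1% to 52.8% of all genes were lower in any pair.

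The promoters of the genes share letters that the choice of genes did not use. RefSeq promoter sequences (GRCm38.p6, 250 bases before to 50 after the gene start) were held for 41 of the 49 genes. Both strands were searched for TTTGAA, the core of the cell cycle homology region through which such genes are known to be repressed outside G2 and M phase, and for CCAAT, the core of the box bound by NF-Y. TTTGAA was found in 31 of 41 promoters (75.6%), against 20.2% of the 27025 genes with a promoter entry. CCAAT was found in 29 of 41 (70.7%), against 41.1%, and 26 of 41 (63.4%) held both, against 7.97%. Within 50 bases of the start, TTTGAA stood in 28 of 41 promoters (68.3%), against 5.72% of all. For comparison, TTTGAA was in 4 of 32 promoters (12.5%) of DNA replication genes and in 29 of 64 (45.3%) of other mitosis genes. The median wild-type change was -1.10 in the 31 genes with TTTGAA and -0.99 in the 10 without, the knockout change -0.77 and -0.62, and the difference between untreated genotypes -1.11 and -1.10. For CCAAT these medians were -1.08 with (29 genes) and -1.04 without (12 genes), -0.70 and -0.74, and -1.10 and -1.12. A match describes the sequence, not a bound site.

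The 6 promoters below belong to the genes with the largest mean fall over both genotypes among those holding a match, and show how the letters lie. Each runs 5′ to 3′ on the strand of its gene from 150 bases before to 50 bases after the start, and capitals mark TTTGAA or CCAAT on either strand (TTCAAA and ATTGG are the same letters read from the other strand).
Anln: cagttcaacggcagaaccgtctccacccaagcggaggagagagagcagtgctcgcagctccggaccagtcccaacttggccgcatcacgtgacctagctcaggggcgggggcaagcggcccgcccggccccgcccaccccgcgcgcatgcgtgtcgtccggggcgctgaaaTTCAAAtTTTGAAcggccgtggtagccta
Ncapg: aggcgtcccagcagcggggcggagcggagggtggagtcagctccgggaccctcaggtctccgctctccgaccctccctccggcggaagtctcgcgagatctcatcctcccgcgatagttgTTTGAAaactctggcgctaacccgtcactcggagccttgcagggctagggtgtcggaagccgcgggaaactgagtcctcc
Kif11: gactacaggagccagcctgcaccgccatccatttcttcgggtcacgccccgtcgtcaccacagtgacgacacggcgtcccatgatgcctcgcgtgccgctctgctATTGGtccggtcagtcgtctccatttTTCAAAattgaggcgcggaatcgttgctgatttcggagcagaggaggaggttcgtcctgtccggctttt
Bub1: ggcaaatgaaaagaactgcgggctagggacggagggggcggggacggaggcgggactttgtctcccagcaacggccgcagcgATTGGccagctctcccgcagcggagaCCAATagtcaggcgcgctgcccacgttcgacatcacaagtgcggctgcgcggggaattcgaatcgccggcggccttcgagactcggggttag
Top2a: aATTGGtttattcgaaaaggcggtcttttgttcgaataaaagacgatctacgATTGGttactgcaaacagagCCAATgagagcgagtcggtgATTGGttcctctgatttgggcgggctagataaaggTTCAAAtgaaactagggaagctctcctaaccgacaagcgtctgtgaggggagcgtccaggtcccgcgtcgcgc
Plk1: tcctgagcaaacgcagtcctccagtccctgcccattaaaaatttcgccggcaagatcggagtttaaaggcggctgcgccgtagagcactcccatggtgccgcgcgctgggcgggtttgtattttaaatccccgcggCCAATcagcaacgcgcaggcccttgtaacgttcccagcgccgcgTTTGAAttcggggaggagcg
They lie at chr9:22389157-22389356, minus strand (Anln), chr5:45669775-45669974, plus strand (Ncapg), chr19:37376232-37376431, plus strand (Kif11), chr2:127831810-127832009, minus strand (Bub1), chr11:99024140-99024339, minus strand (Top2a) and chr7:122159285-122159484, plus strand (Plk1). Anln, Ncapg, Kif11, Top2a and Plk1 carry TTTGAA close to the start, at first bases 22 and 29, -30, -19, -23 and 31 counted from it. Top2a has another at -179, outside the printed stretch. Bub1 has no TTTGAA in the searched window and carries CCAAT letters at -68 and -42.

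**Figure D2:**
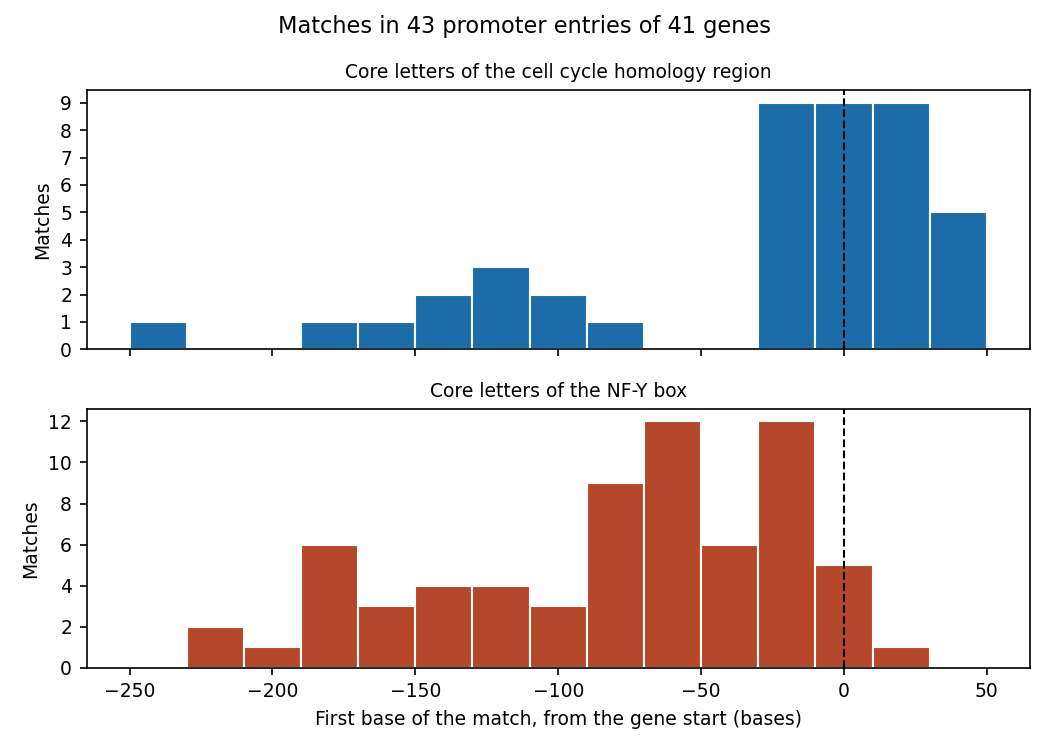
Number of matches (vertical axis) by the distance of their first base from the gene start (horizontal axis, bases, in bins of 20) over 43 promoter entries of 41 genes, Ect2 and Prc1 having 2 entries each. Of 43 matches of the cell cycle homology region core, 32 lie within 50 bases of the start, while the 68 matches of the NF-Y box core lie mostly upstream. Matches are counted by entry, so a site inside both entries of a gene counts in each.

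Curdlan lowered nearly the whole set in wild-type cells. Of 49 genes, 47 fell and none rose (limma, adjusted p under 0.05), where 12.3% of all genes fell and 19.6% changed in either direction. The median change was -1.04, close to a halving, against 0.02 for all genes, and single genes ranged from -1.49 (Ncapg) to -0.21 (Plk4 and Tpx2, which did not pass). The 3 treated arrays lay below the 3 untreated arrays in 44 of 49 genes, against 21.0% of all genes. The largest falls were those of the condensin gene Ncapg (-1.49 ± 0.25, SE, adjusted p 0.0019), Depdc1a (-1.42 ± 0.21, adjusted p 0.00089), the spindle motor gene Kif11 (-1.40 ± 0.27, adjusted p 0.00404) and the kinetochore gene Nuf2 (-1.31 ± 0.20, adjusted p 0.00133). These 4 kept their calls when each array, or each same-numbered pair of arrays, was left out in turn, as did 25 of the 47. The count fell to 26 without both arrays of wild-type replicate 3 and lay between 34 and 47 without any other array or pair.

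Curdlan lowered genes of the set in knockout cells too. Of 49 genes 30 fell and none rose, where 13.2% of all genes fell and 22.5% changed in either direction, and the median change was -0.70 against 0.04 for all genes. The treated arrays lay below the untreated arrays in 45 of 49 genes, against 20.8% of all genes. The cytokinesis scaffold gene Anln (-1.39 ± 0.30, SE, adjusted p 0.00832), the cyclin gene Ccna2 (-1.31 ± 0.22, adjusted p 0.0024), Kif11 (-1.21 ± 0.27, adjusted p 0.00926) and Ncapg (-1.18 ± 0.25, adjusted p 0.0072) fell most. Of the 30 calls, that of Ccna2 alone was kept without each array and each same-numbered pair. Kif11 and Ncapg kept theirs in 16 and 17 of the 18 such fits, and Anln in 17. The count was 19, 15, 17 and 13 without knockout untreated array 1 or 3 or curdlan array 1 or 2, and 1, 11 and 16 without both arrays of knockout replicate 1, 2 or 3, while the median change stayed between -0.63 and -0.78. With the replicate number as a block, 44 of 49 passed: the 30 and 14 more (Bub1b, Cdc20, Birc5, Kif2c, Kif4, Cenpe, Cenpf, Ndc80, Ttk, Mad2l1, Mki67, Aspm, Melk and Foxm1). When only the arrays of the same genotype were fitted, 39 of 49 fell in wild-type cells and 39 of 49 in knockout cells. The 47 and 30 of the main fit rest on a spread estimated over all groups together. Their difference is thus not a measure of how the genotypes differ.

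**Figure D3:**
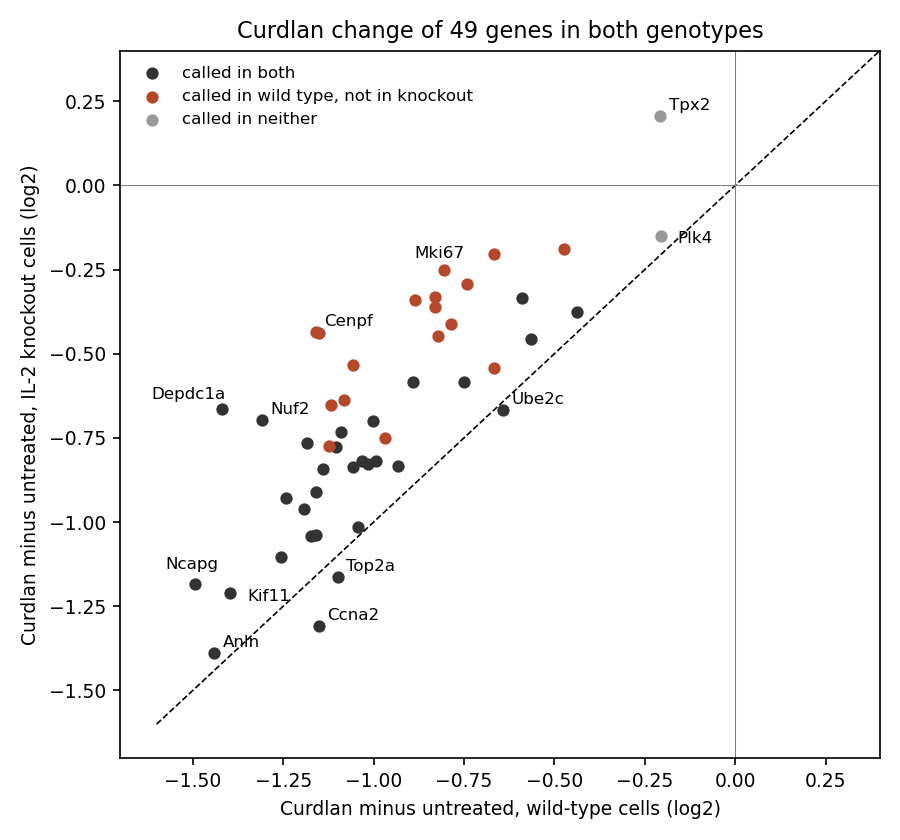
Curdlan minus untreated (log2) in wild-type cells (horizontal axis) against knockout cells (vertical axis) for 49 genes; the dashed line marks equal change. Of the points, 46 lie above the line, a larger fall in wild-type cells, and the largest gaps are those of Depdc1a, by the brighter of its 2 probe sets, and Cenpf.

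Set side by side, the fall was larger in wild-type than in knockout cells in 46 of 49 genes. The difference of the curdlan effects (knockout minus wild type) had a median of 0.30 and ran from -0.16 (Ccna2) to 0.75 (Depdc1a). The median was 0.09 without wild-type curdlan array 1 or without wild-type untreated array 2, 0.50 without wild-type curdlan array 2, and 0.22 to 0.34 when both arrays of a same-numbered pair were left out. No gene passed the test of that difference, 0 of 49 and 0 of 19937 by limma. At an unadjusted p under 0.05 there were 2 of the 49, Depdc1a (0.75, 95% interval 0.11 to 1.40) and Cenpf (0.72, 0.14 to 1.31), and 552 of all genes. The second, dimmer probe set of Depdc1a changed by -1.11 in wild-type and -0.92 in knockout cells, a smaller gap. A smaller fall in knockout cells was therefore not established for any gene, and neither was an equal one. The 46 became 31 without wild-type untreated array 2 and 34 without wild-type curdlan array 1, fits that split a same-numbered pair. It lay between 43 and 48 when both arrays of any pair were left out, and the mean changes of the 3 pairs given above did not overlap between the genotypes. The falls of the 49 genes in the 2 genotypes, which share no arrays, were correlated across genes at 0.79 (Pearson) and 0.76 (Spearman), against 0.92 (Pearson) for all genes. This describes genes measured in the same libraries, which are not independent of each other.

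Without any treatment, knockout cells already held less of these transcripts than wild-type cells. Of 49 genes 31 were lower and none higher in the untreated knockout, where 1.19% of all genes were lower and 1.42% differed in either direction, so the set made up 13.1% of the 237 lower genes while being 0.246% of the genes tested. The median difference was -1.06, against 0.01 for all genes, and the range ran from -1.50 (Ccnb2) to -0.34 (Smc4, which did not pass). The knockout arrays lay below the wild-type arrays in 48 of 49 genes, against 7.88% of all genes. The largest differences past the threshold were in Ccnb2 (-1.50 ± 0.26, SE, adjusted p 0.0173), Nuf2 (-1.46 ± 0.20, adjusted p 0.00888), Kif11 (-1.44 ± 0.27, adjusted p 0.0258) and Depdc1a (-1.39 ± 0.21, adjusted p 0.0117). No single call was kept without each array and each same-numbered pair. The count was 3 and 12 without wild-type untreated array 2 or 3, 6 and 3 without knockout untreated array 1 or 2, 18 without knockout curdlan array 1, and 2, 1, 0 and 14 without both arrays of wild-type replicate 3 or knockout replicate 1, 2 or 3. When only the 6 untreated arrays were fitted it was 6. The median difference stayed between -0.84 and -1.23 over all alternatives tried. With the replicate number as a block, also fitted on the 6 untreated arrays alone, 27 passed. Against the 31 of the fit on all 12 arrays, Cdk1 and Anln were gained, and Plk4, Incenp, Kif23, Kif15, Ndc80 and Nek2 were lost. On the same 6 arrays the block thus went with more calls, 27 against 6.

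With curdlan in both genotypes the knockout remained lower in direction, and few genes passed. All 49 differences were negative, with a median of -0.65 against 0.02 for all genes, and 5 of 49 were called lower, where 0.517% of all genes were and 0.622% differed in either direction. The arrays did not overlap in 41 of 49 genes, against 6.84% of all genes. The 5 genes were Top2a (-1.27), Plk1 (-1.25), Ccna2 (-1.24), Prc1 (-1.10) and Ube2c (-0.96, SE 0.14, adjusted p 0.0202). The count rested on single arrays. It was 0 without knockout curdlan array 2 or 3, 1 without knockout curdlan array 1, wild-type curdlan array 2 or 3 or wild-type untreated array 3, 2 without knockout untreated array 1 or 2, and 3 without knockout untreated array 3. It was 11 and 13 without wild-type untreated array 2 or wild-type curdlan array 1, 22 and 0 without both arrays of wild-type replicate 1 or 3, and 0 without both arrays of any knockout replicate. When only the 6 curdlan-treated arrays were fitted it was 0. These comparisons share arrays with those above, so they are given as values and not as separate support.

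Untreated knockout cells and curdlan-treated wild-type cells lay at nearly the same level. The knockout mean was below the curdlan-treated wild-type mean in 29 genes and above it in 20, with a median difference of -0.05. The arrays of these 2 groups overlapped in 46 of 49 genes, against 64.3% of all genes. In Plk4, Tpx2 and Ube2c the untreated knockout arrays lay below. The groups differ in both genotype and treatment, so no test was made.

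**Figure D4:**
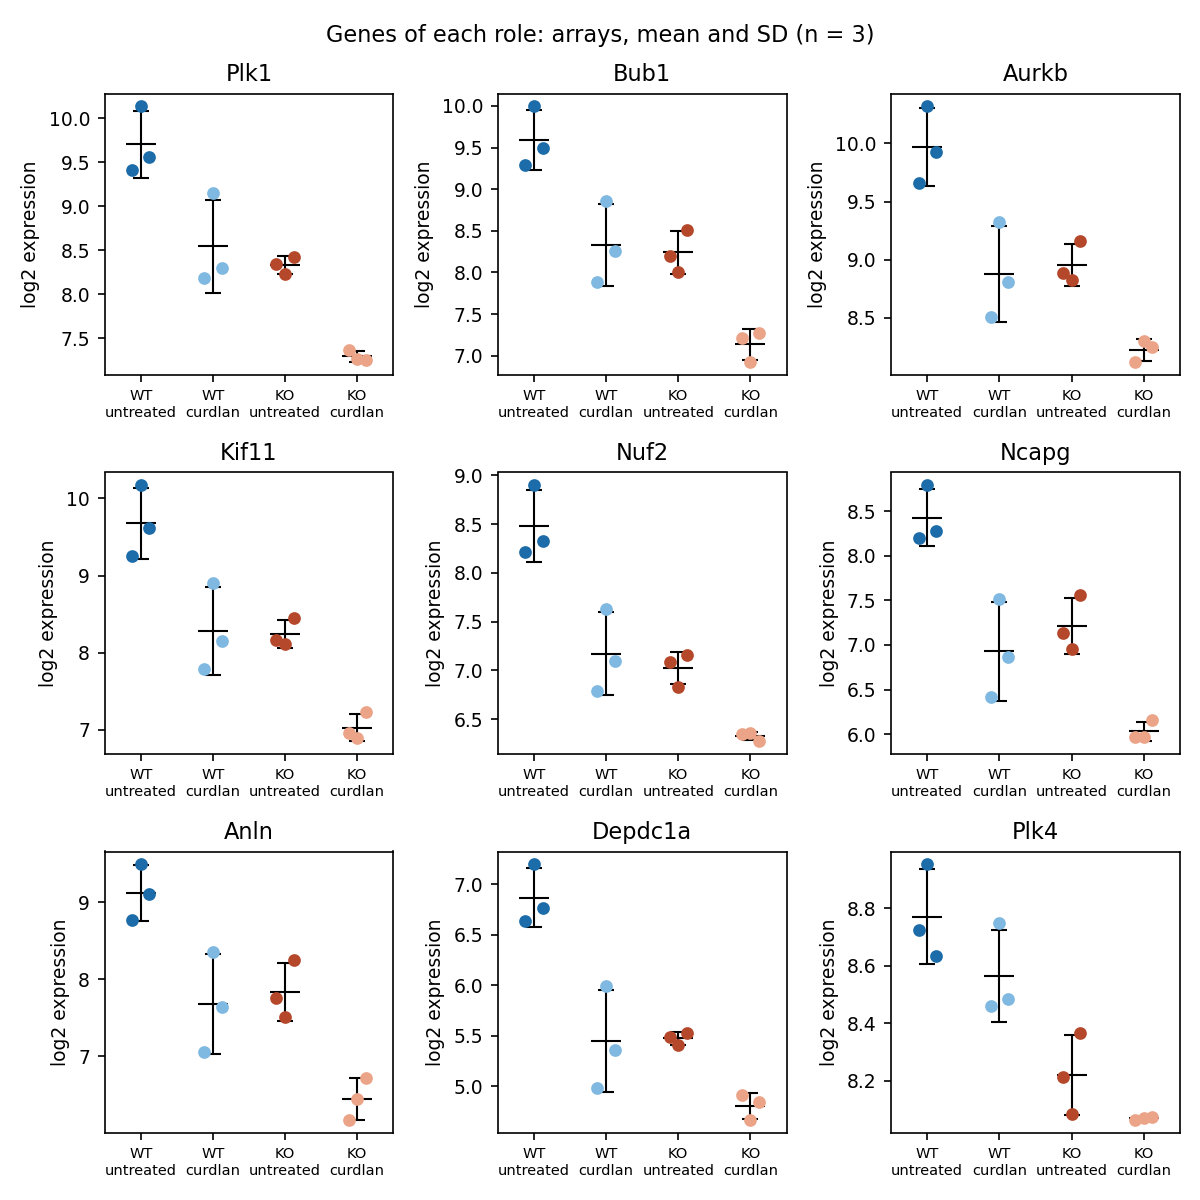
Log2 expression (vertical axis, a separate scale for each gene) of 9 genes in the 4 groups; points are arrays, the horizontal mark is the mean and the bars are 1 SD (n = 3). In each of Plk1, Bub1, Aurkb, Kif11, Nuf2, Ncapg, Anln and Depdc1a the untreated wild-type points lie highest and the knockout curdlan points lowest, while Plk4 separates by genotype and overlaps by treatment in wild-type cells.

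Counts by role, here and below, are calls of the fit without blocks on all 12 arrays, with a spread estimated over all groups together. Passing in wild-type and not in knockout cells is therefore not a shown difference between the genotypes. Of all genes, 12.3% fell with curdlan in wild-type and 13.2% in knockout cells, and 1.19% were lower in the untreated knockout. The 14 more genes that passed in knockout cells with the replicate number as a block are named above. Among genes of entry into mitosis, all 7 fell with curdlan in wild-type cells and 4 of 7 in knockout cells, and 5 of 7 were lower in the untreated knockout. Plk1, the Polo-like kinase of spindle formation and mitotic exit, measured 9.41, 10.14 and 9.56 on the untreated wild-type arrays and 8.18, 9.15 and 8.30 after curdlan. Knockout arrays gave Plk1 values of 8.34, 8.23 and 8.43 untreated and 7.37, 7.27 and 7.25 with curdlan. The treated arrays lay below the untreated ones in both genotypes, and the change was -1.16 in wild-type and -1.04 in knockout cells. Ccna2, cyclin A2 of S phase and early mitosis, measured 10.37, 10.99 and 10.61 on the untreated wild-type arrays and 9.13, 10.03 and 9.35 after curdlan. Knockout arrays gave Ccna2 values of 9.43, 9.45 and 9.82 untreated and 8.28, 8.06 and 8.44 with curdlan. Its fall was the larger in the knockout (-1.31 against -1.15), one of 3 genes with that order beside Top2a and Ube2c. Ccnb2, cyclin B2, measured 10.61, 11.61 and 10.95 on the untreated wild-type arrays and 9.53, 10.47 and 9.69 after curdlan. Knockout arrays gave Ccnb2 values of 9.59, 9.47 and 9.60 untreated and 8.83, 8.61 and 8.48 with curdlan. The arrays overlapped in none of the 4 comparisons. Cdk1, the kinase these cyclins activate, measured 10.24, 10.60 and 10.44 on the untreated wild-type arrays and 9.63, 10.14 and 9.82 after curdlan. Knockout arrays gave Cdk1 values of 9.76, 9.74 and 9.98 untreated and 9.22, 9.37 and 9.53 with curdlan. It moved least of the group in wild-type cells, by -0.56 in wild-type and -0.45 in knockout cells, and its difference between untreated genotypes (-0.60 ± 0.14, SE) did not pass. Foxm1, a transcription factor that switches on mitotic genes, measured 7.72, 8.44 and 8.02 on the untreated wild-type arrays and 6.78, 7.55 and 7.20 after curdlan. Knockout arrays gave Foxm1 values of 6.90, 6.90 and 7.20 untreated and 6.67, 6.73 and 6.59 with curdlan. Its wild-type fall of -0.88 passed and its knockout change of -0.34 did not. Melk, a kinase of dividing cells, measured 8.28, 8.94 and 8.55 on the untreated wild-type arrays and 7.55, 8.26 and 7.73 after curdlan. Knockout arrays gave Melk values of 7.44, 7.45 and 7.58 untreated and 7.12, 7.41 and 7.06 with curdlan. It showed the same pattern, with -0.74 past the threshold in wild-type cells and -0.29 not past it in the knockout. Cdc25c, the phosphatase that activates Cdk1, fell by 0.79 in wild-type cells with overlapping arrays and did not pass elsewhere.

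Genes of the spindle checkpoint and of its target, the anaphase-promoting complex, fell in 6 of 6 in wild-type cells and in 2 of 6 in knockout cells. All 6 knockout changes were negative, and with the replicate number as a block Bub1b, Cdc20, Ttk and Mad2l1 passed there too. Bub1, a checkpoint kinase, measured 9.29, 9.99 and 9.49 on the untreated wild-type arrays and 7.89, 8.86 and 8.25 after curdlan. Knockout arrays gave Bub1 values of 8.20, 8.01 and 8.51 untreated and 7.21, 6.93 and 7.27 with curdlan. It had the largest changes here, -1.26 in wild-type and -1.10 in knockout cells, with no overlap in any of the 4 comparisons. Cdc20, which activates the anaphase-promoting complex, measured 7.70, 8.48 and 7.91 on the untreated wild-type arrays and 6.92, 7.70 and 6.99 after curdlan. Knockout arrays gave Cdc20 values of 6.88, 6.98 and 6.91 untreated and 6.73, 6.67 and 6.37 with curdlan. The groups again did not overlap, but the knockout change of -0.33 ± 0.22 (SE) did not pass. Ube2c, the ubiquitin-conjugating enzyme of that complex, measured 9.46, 9.93 and 9.67 on the untreated wild-type arrays and 8.79, 9.39 and 8.94 after curdlan. Knockout arrays gave Ube2c values of 8.73, 8.73 and 8.79 untreated and 8.13, 8.02 and 8.10 with curdlan. It changed by -0.64 and -0.67, and it was lower in the knockout by 0.94 untreated and 0.96 with curdlan. Bub1b, Ttk and Mad2l1, the other checkpoint genes, changed by -1.08, -0.82 and -0.67 in wild-type cells, where they passed, and by -0.64, -0.45 and -0.54 in knockout cells, where they did not. None of these 3 passed between genotypes.

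The Aurora kinases and the chromosomal passenger complex, which corrects faulty attachments and later marks the division plane, fell in 5 of 5 in wild-type and 4 of 5 in knockout cells. Aurkb, the kinase of the complex, measured 9.66, 10.32 and 9.93 on the untreated wild-type arrays and 8.51, 9.32 and 8.81 after curdlan. Knockout arrays gave Aurkb values of 8.88, 8.82 and 9.16 untreated and 8.12, 8.30 and 8.25 with curdlan. Its wild-type fall was -1.09 and its knockout fall -0.73. Birc5, survivin, the subunit that docks the complex on chromosomes, measured 7.66, 8.40 and 7.76 on the untreated wild-type arrays and 6.61, 7.31 and 6.74 after curdlan. Knockout arrays gave Birc5 values of 6.77, 6.85 and 6.75 untreated and 6.34, 6.17 and 6.27 with curdlan. It was lower in untreated knockout cells by 1.15, while its knockout curdlan change of -0.53 did not pass. Aurka, the Aurora kinase of the spindle poles, measured 8.63, 9.11 and 8.80 on the untreated wild-type arrays and 7.61, 8.40 and 7.86 after curdlan. Knockout arrays gave Aurka values of 8.07, 7.74 and 7.96 untreated and 7.49, 7.25 and 7.27 with curdlan. The arrays overlapped in none of the 4 comparisons. Incenp, the scaffold of the complex, measured 8.51, 8.78 and 8.65 on the untreated wild-type arrays and 8.0, 8.16 and 8.02 after curdlan. Knockout arrays gave Incenp values of 8.12, 8.14 and 8.32 untreated and 7.86, 7.72 and 7.99 with curdlan. Its changes were the smallest of the group, -0.59 and -0.33, and both passed. Cdca8 (borealin) fell by 0.93 and 0.83, and its difference between untreated genotypes (-0.66) did not pass.

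The 8 mitotic kinesins, motors that build the spindle and move chromosomes, all fell in wild-type cells, and 6 fell in knockout cells. Kif11, which pushes the spindle poles apart, measured 9.26, 10.17 and 9.61 on the untreated wild-type arrays and 7.79, 8.91 and 8.15 after curdlan. Knockout arrays gave Kif11 values of 8.17, 8.11 and 8.45 untreated and 6.97, 6.90 and 7.23 with curdlan. This is a 2.63-fold fall in wild-type and a 2.31-fold fall in knockout cells. Kif15, a motor that works beside it, measured 8.10, 8.92 and 8.21 on the untreated wild-type arrays and 6.82, 7.72 and 7.11 after curdlan. Knockout arrays gave Kif15 values of 7.29, 7.08 and 7.41 untreated and 6.25, 6.26 and 6.40 with curdlan. Its falls were -1.19 and -0.96. Kif18b, which shortens astral microtubules, measured 8.35, 9.15 and 8.55 on the untreated wild-type arrays and 7.30, 7.99 and 7.45 after curdlan. Knockout arrays gave Kif18b values of 7.51, 7.42 and 7.51 untreated and 6.71, 6.68 and 6.71 with curdlan. The untreated knockout was lower by 1.20, a call kept in 14 of 18 fits with arrays left out. Kif20a, needed for cytokinesis, measured 9.17, 9.83 and 9.24 on the untreated wild-type arrays and 7.91, 8.74 and 8.08 after curdlan. Knockout arrays gave Kif20a values of 8.12, 8.07 and 8.45 untreated and 7.21, 6.96 and 7.36 with curdlan. It fell by 1.17 and 1.04. Kif23, a subunit of centralspindlin, measured 9.41, 9.87 and 9.31 on the untreated wild-type arrays and 8.22, 8.64 and 8.18 after curdlan. Knockout arrays gave Kif23 values of 8.82, 8.35 and 8.39 untreated and 8.04, 7.51 and 7.72 with curdlan. It fell by 1.18 in wild-type and 0.77 in knockout cells. Kif4, a motor on chromosome arms, measured 7.37, 8.20 and 7.61 on the untreated wild-type arrays and 6.09, 7.22 and 6.51 after curdlan. Knockout arrays gave Kif4 values of 6.51, 6.24 and 6.60 untreated and 5.76, 5.64 and 5.99 with curdlan. Its wild-type change of -1.12 passed and its knockout change of -0.65 did not. Kif20b moved least of the kinesins in wild-type cells and measured 6.75, 7.70 and 7.03 on the untreated wild-type arrays and 5.88, 6.40 and 6.10 after curdlan. Knockout arrays gave Kif20b values of 6.04, 6.03 and 6.51 untreated and 5.31, 5.37 and 5.45 with curdlan. It still fell by 1.03 and 0.82. Kif2c, a microtubule depolymerase, changed by -1.12 in wild-type cells, where it passed with overlapping arrays, and by -0.77 in knockout cells, where it did not pass.

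Centromere and kinetochore genes fell in 6 of 6 in wild-type cells and in 2 of 6 in knockout cells. All 6 knockout changes were negative, and with the replicate number as a block Cenpe, Cenpf and Ndc80 passed there too. Nuf2, a subunit of the Ndc80 complex that grips microtubules, measured 8.21, 8.90 and 8.33 on the untreated wild-type arrays and 6.79, 7.63 and 7.09 after curdlan. Knockout arrays gave Nuf2 values of 7.09, 6.83 and 7.15 untreated and 6.34, 6.36 and 6.28 with curdlan. The untreated knockout was lower by 1.46 and the groups did not overlap. Ndc80, its partner, measured 7.68, 8.52 and 7.75 on the untreated wild-type arrays and 6.97, 7.49 and 7.0 after curdlan. Knockout arrays gave Ndc80 values of 6.96, 7.02 and 7.15 untreated and 6.79, 6.54 and 6.71 with curdlan. Its knockout change with curdlan (-0.36) did not pass, while that of Spc25, another subunit of the complex, did (-0.93). Cenpf, a large outer kinetochore protein, measured 7.25, 8.07 and 7.27 on the untreated wild-type arrays and 6.23, 6.66 and 6.23 after curdlan. Knockout arrays gave Cenpf values of 6.30, 6.30 and 6.32 untreated and 5.98, 5.92 and 5.73 with curdlan. Its change was -1.16 in wild-type and -0.43 in knockout cells, among the widest gaps of the set. Cenpa, the histone variant that marks centromeres, measured 9.89, 10.30 and 9.93 on the untreated wild-type arrays and 9.56, 9.72 and 9.41 after curdlan. Knockout arrays gave Cenpa values of 9.53, 9.50 and 9.47 untreated and 9.27, 9.51 and 9.14 with curdlan. It moved least here (-0.47 and -0.19), and in knockout cells the treated and untreated arrays overlapped. Cenpe, a kinetochore motor, changed by -0.97 and -0.75, past the threshold in wild-type cells only.

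Genes of condensin and chromosome structure fell in 7 of 7 in wild-type and 6 of 7 in knockout cells. Ncapg, a subunit of condensin I, measured 8.20, 8.79 and 8.28 on the untreated wild-type arrays and 6.41, 7.51 and 6.86 after curdlan. Knockout arrays gave Ncapg values of 7.13, 6.96 and 7.56 untreated and 5.97, 5.97 and 6.16 with curdlan. Its wild-type fall was 2.82-fold. Ncapd2, another subunit, measured 8.71, 9.42 and 9.03 on the untreated wild-type arrays and 7.70, 8.38 and 7.91 after curdlan. Knockout arrays gave Ncapd2 values of 8.0, 7.96 and 8.22 untreated and 7.23, 7.09 and 7.36 with curdlan. It fell by 1.06 and 0.84. Smc4, an ATPase subunit shared by both condensins, measured 10.26, 10.45 and 10.27 on the untreated wild-type arrays and 9.76, 10.05 and 9.86 after curdlan. Knockout arrays gave Smc4 values of 9.85, 9.93 and 10.17 untreated and 9.50, 9.47 and 9.85 with curdlan. It fell by 0.44 and 0.38 only, and its difference between genotypes did not pass in either treatment. Top2a, the topoisomerase that untangles sister chromosomes, measured 9.77, 10.44 and 9.95 on the untreated wild-type arrays and 8.44, 9.51 and 8.92 after curdlan. Knockout arrays gave Top2a values of 8.74, 8.67 and 9.12 untreated and 7.74, 7.49 and 7.80 with curdlan. It was among the 5 genes called lower in the knockout in both treatments. The dimmer of its 2 probe sets, with a mean of 3.56, showed smaller curdlan changes (-0.36 in wild-type and -0.39 in knockout cells). Its differences between genotypes were smaller too (-0.20 untreated and -0.23 with curdlan, against -1.21 and -1.27 for the brighter one). Mki67, the Ki-67 protein used to mark dividing cells, measured 10.29, 10.93 and 10.44 on the untreated wild-type arrays and 9.48, 10.14 and 9.61 after curdlan. Knockout arrays gave Mki67 values of 9.24, 9.20 and 9.72 untreated and 9.14, 9.01 and 9.25 with curdlan. The untreated knockout was lower by 1.16, while with curdlan the knockout change (-0.25) did not pass and its arrays overlapped. Ncaph and Smc2 fell by 1.04 and 0.75 in wild-type and by 1.01 and 0.58 in knockout cells.

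Genes of spindle poles and assembly were the least uniform, with 3 of 5 falling in wild-type and 1 of 5 in knockout cells. Of all genes 12.3% and 13.2% fell, so the 1 of 5 is near the share. Treated arrays lay below untreated ones in 2 of 5 in wild-type and 4 of 5 in knockout cells, against 21.0% and 20.8% of all genes. With the replicate number as a block, Aspm passed in knockout cells too. Aspm, a spindle pole protein, measured 7.17, 8.22 and 7.41 on the untreated wild-type arrays and 6.22, 6.96 and 6.17 after curdlan. Knockout arrays gave Aspm values of 6.36, 6.33 and 6.27 untreated and 5.88, 6.03 and 5.75 with curdlan. Its change was -1.15 in wild-type cells and -0.44, not past the threshold, in knockout cells. Nusap1, which bundles spindle microtubules, measured 9.45, 10.18 and 9.63 on the untreated wild-type arrays and 8.23, 9.35 and 8.63 after curdlan. Knockout arrays gave Nusap1 values of 8.39, 8.35 and 8.52 untreated and 7.54, 7.46 and 7.77 with curdlan. It fell in both genotypes, by 1.01 and 0.83. Nek2, a kinase that separates centrosomes, measured 6.93, 7.77 and 7.39 on the untreated wild-type arrays and 6.56, 7.03 and 6.50 after curdlan. Knockout arrays gave Nek2 values of 6.44, 6.26 and 6.51 untreated and 6.22, 6.13 and 6.26 with curdlan. Its wild-type fall of 0.67 passed although the arrays overlapped. Plk4, the kinase that starts centriole duplication, measured 8.72, 8.95 and 8.63 on the untreated wild-type arrays and 8.46, 8.75 and 8.48 after curdlan. Knockout arrays gave Plk4 values of 8.21, 8.08 and 8.36 untreated and 8.06, 8.07 and 8.07 with curdlan. It did not pass with curdlan in either genotype (-0.21 and -0.15), but was lower in the untreated knockout by 0.55 ± 0.10 (SE, adjusted p 0.0242). With the replicate number as a block, Plk4 passed with curdlan in wild-type cells. Between untreated genotypes it did not pass in the block fit, which used the 6 untreated arrays alone. Tpx2, an activator of Aurora A, measured 8.87, 9.34 and 8.77 on the untreated wild-type arrays and 8.62, 9.07 and 8.67 after curdlan. Knockout arrays gave Tpx2 values of 8.09, 8.10 and 8.56 untreated and 8.37, 8.98 and 8.02 with curdlan. It passed in no comparison and was the only one of the 49 with a positive curdlan change in the knockout (0.21 ± 0.23, SE), which turned to -0.05 without curdlan-treated knockout array 2 and -0.13 without both arrays of that replicate.

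All 4 cytokinesis genes fell with curdlan in both genotypes. Anln, anillin, the scaffold of the contractile ring, measured 8.77, 9.49 and 9.10 on the untreated wild-type arrays and 7.06, 8.35 and 7.63 after curdlan. Knockout arrays gave Anln values of 7.75, 7.51 and 8.24 untreated and 6.17, 6.45 and 6.71 with curdlan. The falls were -1.44 and -1.39, and the difference between untreated genotypes (-1.28 ± 0.30, SE) did not pass. Prc1, which bundles the microtubules between the separating chromosomes, measured 7.99, 8.75 and 8.29 on the untreated wild-type arrays and 6.97, 7.84 and 7.24 after curdlan. Knockout arrays gave Prc1 values of 6.99, 6.95 and 7.26 untreated and 6.22, 6.23 and 6.30 with curdlan. It moved least of the group with curdlan in wild-type cells (-0.99) and was lower in the knockout in both treatments (-1.28 and -1.10). Racgap1 and Ect2, which activate the small GTPase pathway that closes the ring, fell by 1.14 and 1.00 in wild-type and by 0.84 and 0.70 in knockout cells. Depdc1a, placed in no group, measured 6.64, 7.20 and 6.76 on the untreated wild-type arrays and 4.99, 5.99 and 5.36 after curdlan. Knockout arrays gave Depdc1a values of 5.49, 5.41 and 5.53 untreated and 4.92, 4.67 and 4.84 with curdlan. Its second probe set, dimmer, changed alike in direction (-1.11 in wild-type and -0.92 in knockout cells).

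Other mitosis genes, taken from a list of 79 names of which 76 were tested, moved the same way with smaller medians. With curdlan 52 of 76 fell and 1 rose in wild-type cells (median -0.69), 34 fell and 1 rose in knockout cells (median -0.40), and 29 were lower in the untreated knockout (median -0.66). The kinetochore scaffold gene Knl1 changed by -1.41 and -0.96 and the spindle gene Hmmr by -1.37 and -1.0. The gene that rose was Pttg1, securin, which guards sister chromosome cohesion: it was higher with curdlan by 1.25 in wild-type (adjusted p 0.000102) and 1.05 in knockout cells (adjusted p 0.000416). Genes of DNA replication fell in 26 of 39 in wild-type (median -0.53) and 22 of 39 in knockout cells (median -0.44), and 6 of 39 were lower in the untreated knockout (median -0.39), among them the primase gene Prim1 (-0.83). Rrm2, which makes deoxynucleotides, changed by -1.07 and -1.13 with curdlan, and the DNA polymerase gene Pole by -1.06 and -0.95. With curdlan in both genotypes, 0 of 76 other mitosis genes and 1 of 39 replication genes were lower in the knockout. Of all genes, 12.3% fell with curdlan in wild-type and 13.2% in knockout cells. Between genotypes, 1.19% of all genes were lower in the untreated knockout and 0.517% with curdlan.

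**Figure D5:**
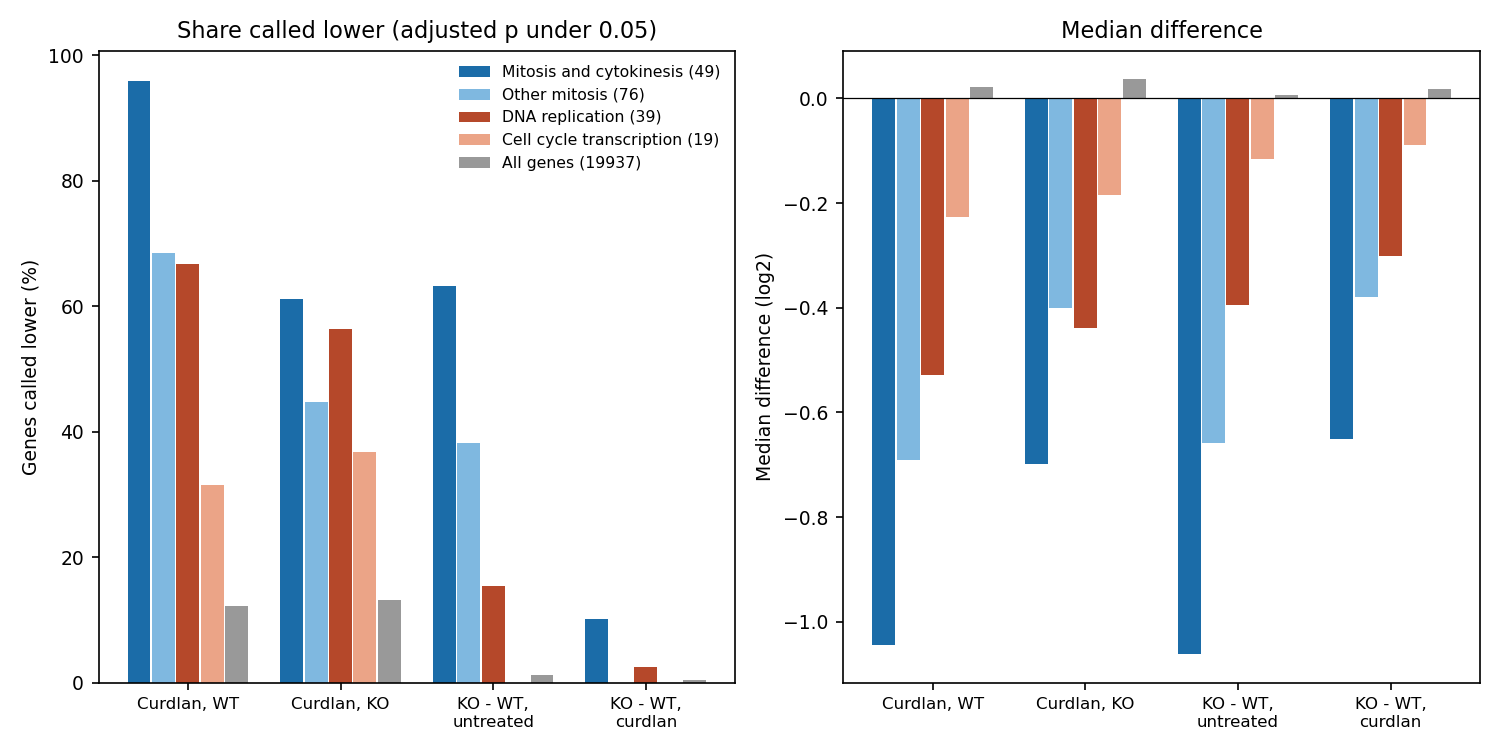
Left, share of genes called lower (%, limma, adjusted p under 0.05), and right, median difference (log2), in 4 comparisons for the 49 genes, 3 comparison lists and all 19937 genes. The 49 genes have the largest share and the most negative median in each comparison, and all genes have a median near 0.

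Among 8 markers of immature myeloid cells, Cd34, Kit and Gata2 had the order of the mitosis genes over the 4 groups. Group means of Kit were 8.24 untreated and 8.02 with curdlan in wild-type cells, and 7.64 and 7.54 in knockout cells. Those of Gata2 were 9.19 and 8.92, and then 8.52 and 8.40. The untreated knockout differed by -0.60 in Kit and -0.67 in Gata2, and neither gene passed in any comparison. Cd34, a marker of blood progenitors, measured 9.99, 10.02 and 9.42 in untreated and 8.73, 8.83 and 8.60 in curdlan-treated wild-type cells, and 8.93, 7.62 and 8.33 and then 7.93, 6.67 and 7.57 in knockout cells. Its wild-type fall passed (adjusted p 0.0428), and the difference between untreated genotypes did not (adjusted p 0.0551). The mean of the 8 progenitor markers was 6.90 to 6.94 in untreated wild-type, 6.70 to 6.76 in curdlan-treated wild-type, 6.47 to 6.58 in untreated knockout and 6.37 to 6.56 in curdlan-treated knockout cells. Of the 8, 2 fell in wild-type cells (Cd34 and Myb), where 12.3% of all genes fell. None passed between genotypes, where 1.42% of all genes passed untreated and 0.622% with curdlan. In knockout cells none fell and 1 rose (Prtn3, 0.30), where 13.2% of all genes fell and 9.29% rose. Mpo, Elane, Prtn3 and Ctsg, made in granulocyte precursors, had group means between 4.76 and 6.32 and differed by at most 0.11 between genotypes. The part of progenitor content in the differences of the mitosis genes was not tested. Dendritic cell markers rose in 3 of 11 in wild-type and 4 of 11 in knockout cells, Ccr7 among them, where 7.27% and 9.29% of all genes rose. They passed between genotypes in 0 of 11, where again 1.42% of all genes passed untreated and 0.622% with curdlan.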

How the data were processed

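Total RNA (100 ng) of 12 samples was hybridised to 12 arrays. The deposited values are log2 expression made by the authors with RMA, per the submitters' processing notes; which arrays shared a normalisation is not stated. Of 34760 probe sets, 21640 carried exactly 1 gene symbol, 1321 several, and 11799 were not listed in the annotation; the first kind gave 19937 genes. No filter on low values was applied, so all 49 genes with a probe set were tested.

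The 4 group means were estimated from all 12 arrays by limma 3.58.1 (R 4.3.3; 8 residual degrees of freedom, moderated two-sided test), and p-values were adjusted by Benjamini-Hochberg over all genes within a contrast, with a threshold of 0.05. SE and 95% intervals are those of the fit. The number of arrays limits the precision. On simulated data for the wild-type curdlan contrast (19937 genes) the fit recovered 100% of 50 genes lowered by 1 and 90% of 50 genes lowered by 0.5. Those genes were drawn at random from all genes and given independent noise. The 49 genes moved together and had median SDs of 0.36 and 0.40 in wild-type cells, against 0.07 to 0.09 for all genes. The recovery rates therefore do not apply to them, and a gene that did not pass was not shown to be unchanged. Genes described array by array were those with the largest and smallest wild-type curdlan change in each role, those called between genotypes, and, of those called with curdlan in 1 genotype or neither, the 8 with the largest gap between the curdlan effects. Tpx2 met none of these rules and was described array by array as well. Values of a few others are given in brief. Of each comparison list, up to 4 genes with the largest wild-type change could be named; Rbl1, outside that rule, was named after its values were seen. The genes and lists were chosen with earlier results of these data known.

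Numbers shared by arrays were taken to pair them where every same-numbered pair of deviations from group means correlated above 0.1: untreated with curdlan arrays of a genotype (0.37 to 0.60) and untreated arrays between genotypes (0.11 to 0.25), not curdlan-treated arrays between genotypes (-0.13 to 0.33). The lowest value admitted, 0.105, is close to that limit. Differently numbered arrays reached 0.381 (wild-type curdlan array 1 with untreated knockout array 2). Between genotypes the untreated arrays thus met the limit only narrowly and the curdlan-treated arrays did not, so the numbers gave no consistent pairing. Blocked fits between genotypes are given as an alternative only, not as a paired design. The labels state no pairing, and the main fit used none. Alternatives were blocks by number, leaving out arrays, other normalisation, variance models, filters and probe set rules. In the genotype contrasts the block by number was fitted on only the arrays compared.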

Additional observations from a re-analysis of the deposited data

How the results depend on the processing

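Directions were steadier than calls. Over all alternatives the median change of the 49 genes lay between -0.82 and -1.27 for curdlan in wild-type cells, -0.63 and -0.78 for curdlan in knockout cells, -0.84 and -1.23 between untreated genotypes, and -0.45 and -0.84 between genotypes with curdlan. The median difference of the curdlan effects lay between 0.09 and 0.50. Leaving out arrays gave 26 to 47 genes lower with curdlan in wild-type cells, 1 to 39 in knockout cells, 0 to 44 between untreated genotypes and 0 to 22 with curdlan, and 31 to 49 genes with a larger fall in wild-type cells. Over all genes the same fits called 1841 to 4011, 1079 to 5284, 9 to 608 and 18 to 299 genes, and 0 to 3 in the interaction (0 of the 49). With only the arrays compared, 39 of the 49 fell with curdlan in wild-type cells and 39 in knockout cells (47 and 30 otherwise). Of all genes, 3572 and 3009 were then called (3899 and 4481 otherwise). In the same kind of fit, 6 of the 49 and 70 of all genes passed between untreated genotypes (31 and 283 otherwise), and 0 and 15 with curdlan (5 and 124 otherwise). With the replicate block, whose numbers do not pair these arrays, 0 and 57 passed with curdlan. That block was fitted on the curdlan-treated arrays alone, where 0 and 15 passed without it. With a random replicate block on all 12 arrays, 12 of the 49 passed. With genes above the median mean only, which left fewer genes to test, 11 of the 49 and 197 genes passed with curdlan. The replicate block called 48, 44, 27 and 0 of the 49 in the other contrasts (the interaction last). A second quantile normalisation, median centring, a trended and robust variance and the mean of all probe sets kept every one of these counts within 1.5 times. Between genotypes with curdlan, Bub1b (-0.17) ranged from -0.47 to 0.10 with arrays left out, and was 0.10 without wild-type curdlan array 2 or both arrays of wild-type replicate 2. The curdlan change of Tpx2 in knockout cells ranged from -0.13 to 0.58, with -0.05 without knockout curdlan array 2. The causes were not tested. Signal over background was not analysed here, so how far it limits changes of dim genes was not tested.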

Other observations

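Of 19 transcription regulators, which include the E2F factors and the pocket proteins that hold them back, 6 fell and none rose with curdlan in wild-type cells (median -0.23), and 7 fell and 1 rose in knockout cells (median -0.18). E2f6 fell by 0.78 and 0.65, the pocket protein gene Rbl2 by 0.48 and 0.47, and E2f1 by 0.46 and 0.41. Rbl1, another pocket protein gene, was the 1 that rose in knockout cells (0.39). Of all genes 12.3% fell and 7.27% rose in wild-type cells, and 13.2% fell and 9.29% rose in knockout cells. None of the 19 passed between genotypes in either treatment, where 1.42% of all genes passed untreated and 0.622% with curdlan.

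Among 6 genes of CDK inhibitors, which stop the kinases of the cycle, 1 fell and 1 rose with curdlan in each genotype. Of all genes 12.3% fell and 7.27% rose in wild-type cells, and 13.2% fell and 9.29% rose in knockout cells, so these counts are near the shares. Cdkn2c fell by 1.16 in wild-type and 0.76 in knockout cells and was lower by 1.17 in the untreated knockout, the pattern of the mitosis genes. Cdkn2b rose by 0.78 and 0.60. Cdkn1b changed by 0.22 and 0.08, neither past the threshold. Cdkn1a was not analysed here.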
